A study of Mus musculus with 8 samples.

Results

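The insulin-like growth factors, their receptors, the binding proteins that carry them and the receptor substrate Irs1 were examined in mouse visual cortex after loss of 1 eye. The family was taken as all probe sets annotated to a single symbol among 10 genes: Igf1, Igf2, Igf1r, Igf2r, Igfbp2, Igfbp3, Igfbp4, Igfbp5, Igfbp6 and Irs1. This gave 14 of the 12422 probe sets analysed, for 9 of the 10 genes. The probe set that names Igfbp5 is annotated to 2 genes, Tmem119 and Igfbp5, so Igfbp5 has no value here.

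Deprived cortex was the visual cortex contralateral to the removed eye, with 4 arrays, and non-deprived cortex was the ipsilateral one, also with 4 arrays. All samples came from wild-type C57Bl6 mice that lost 1 eye at postnatal day 20 and were examined 4 days later, at postnatal day 24. Per the labels' protocols there were 4 operated mice, but the design description mentions pooling. It is not settled whether each array is 1 mouse, so p-values may measure technical spread. Cortex of unoperated mice was not analysed here, so every difference is relative to the hemisphere that kept its main input.

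Igf1 and Igf2 are small secreted hormones related to insulin. Both signal through the receptor tyrosine kinase Igf1r, which recruits adaptors such as Irs1 and activates the phosphatidylinositol 3-kinase and MAP kinase pathways. Igf2r binds Igf2 and carries it to lysosomes, and the binding proteins hold the hormones outside cells, where they limit or prolong their action. In brain, Igf1 is made by subsets of neurons and by glia, whereas Igf2 is known mainly from meninges, blood vessels and choroid plexus.

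Values are MAS5 signals, a linear brightness per probe set. Differences are log2(signal + 15.3) in deprived minus non-deprived cortex, and they understate the change of dim genes. Of the 14 probe sets, 8 passed a filter that kept the 7453 probe sets above the 40th percentile of mean log2 value, which corresponds to a signal of about 110. They stand for 7 genes, since both probe sets of Igfbp3 and the only one of Irs1 were below it. In limma 0 of the 8 passed after Benjamini-Hochberg adjustment over all 7453 probe sets, with an adjusted p of 0.995 for each, where 0% of all probe sets (0 of 7453) were called. At an unadjusted limma p under 0.05 there was 1 of 8, Igf2, where 2.67% of all probe sets (199) lay under that level. In no family member past the filter did the groups separate without overlap, against 2.04% of all probe sets.

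Past the filter, the members with the same sign in all same-numbered pairs were Igf2, higher in deprived cortex, and the binding proteins Igfbp2 and Igfbp6, which were lower. The samples are numbered 1 to 4 in each group. Deviations from group means correlated at only 0.16 to 0.42 between same-numbered samples, and at -0.27 to 0.12 between others. Of the 8 family probe sets 3 kept one sign in 4 of 4 pairs, where 15.9% of all probe sets did. With the replicate number as a block, limma gave an unadjusted p under 0.05 for these 3 of 8, where 7.03% of all probe sets (524) did, and 0 passed after adjustment. With the block as a random effect Igf2 and Igfbp2 stayed under that level, Igfbp6 did not and Igfbp4 94222_at came under it. With the fixed block, Igfbp2 was above it with pair 2 or 3 left out and Igfbp6 with pair 2 or 4 left out. Igf2 stayed under it with any pair left out. Igfbp4 94222_at came under it with pair 2 or 3 left out, and Igfbp4 101571_g_at with pair 3 left out. The median log2 difference of the 8 was -0.13, against 0.02 over all 7453 probe sets. Igfbp4 counts more than once among the 8, and with the brightest probe set of each of the 7 genes the median was -0.0089. Over all 14 with no filter it was 0.05, against 0.06 over all 12422, so the family's median lay near 0 or below it, depending on which probe sets are counted.

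The sequence before the start site of these 3 genes is shown because their pairs all had one sign in a probe set past the filter. Each window is the 250 bases before the outermost start of the gene in RefSeq on GRCm38.p6, written 5′ to 3′ on the gene's strand, and capitals mark a GC box (GGGCGG on either strand), an AP-1 site (TGANTCA) or a cyclic AMP response element (TGACGTCA).
Igf2, chr7:142666817-142667066, minus strand: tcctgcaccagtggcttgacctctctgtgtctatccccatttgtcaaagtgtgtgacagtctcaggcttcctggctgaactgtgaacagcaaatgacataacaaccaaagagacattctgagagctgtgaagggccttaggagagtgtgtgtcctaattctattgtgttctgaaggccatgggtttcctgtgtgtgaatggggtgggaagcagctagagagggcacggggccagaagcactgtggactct
Igfbp2, chr1:72824230-72824479, plus strand: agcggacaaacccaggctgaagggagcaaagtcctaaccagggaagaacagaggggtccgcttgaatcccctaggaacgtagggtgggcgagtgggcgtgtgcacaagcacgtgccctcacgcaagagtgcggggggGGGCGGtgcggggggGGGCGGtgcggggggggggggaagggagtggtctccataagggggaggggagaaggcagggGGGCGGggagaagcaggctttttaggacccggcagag
Igfbp6, chr15:102143936-102144185, plus strand: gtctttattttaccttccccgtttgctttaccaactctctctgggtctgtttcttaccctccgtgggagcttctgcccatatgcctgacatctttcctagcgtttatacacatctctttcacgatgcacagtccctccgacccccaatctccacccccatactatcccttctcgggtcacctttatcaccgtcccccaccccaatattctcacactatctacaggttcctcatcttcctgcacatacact
The Igfbp2 window held 3 GC boxes and was 67.2% G and C. The Igf2 and Igfbp6 windows, at 50.8% and 49.6% G and C, held no match to any of these motifs. The motifs do not overlap one another in these windows. Of all 32851 windows of this length, 32.7% held a GC box, 6.75% an AP-1 site and 1.55% the response element. RefSeq lists 14 windows for the 10 genes, with 4 for Igf2 and 2 for Igfbp2. A GC box was found in 6 of the 14, in Igf2, Igf1r, Igf2r, Igfbp2 and Irs1. An AP-1 site was found in 2, that of Igf1 and the inner window of Igfbp2, and the response element in 0. The arrays do not show which start a transcript used.

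Of the hormones, Igf2 had the larger difference between hemispheres. Igf2, a gene on chromosome 7, read by probe set 98623_g_at, had signals of 1823.1, 2199.3, 2615.6 and 2066.8 in deprived cortex, against 1651.9, 1456.0, 2097.7 and 1289.8 in non-deprived cortex. Deprived sample 3 was the brightest of the 8, and only non-deprived sample 3 reached into the range of the deprived samples. Means were 2176 ± 332 in deprived and 1624 ± 349 in non-deprived cortex (SD, n = 4 each). The log2 difference was 0.43 ± 0.17 (SE), a fold of 1.35, with a 95% interval of 0.06 to 0.80 and a limma adjusted p of 0.995. Its unadjusted limma p was 0.0273, and the exact two-sided permutation p over 70 assignments of the samples was 0.0857. The pair differences were 0.14, 0.59, 0.32 and 0.67 for numbers 1 to 4, higher in 4 of 4. With 4 pairs even an exact sign-flip test cannot reach 0.05. With the replicate block the 95% interval was 0.17 to 0.69, the unadjusted limma p was 0.00436 and the adjusted p was 0.638.

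Igf1 had a difference near 0. Probe set 95545_at of this gene on chromosome 10 had signals of 1214.7, 1358.0, 1656.0 and 1083.7 in deprived cortex, against 1363.7, 1224.5, 1227.3 and 1319.4 in non-deprived cortex. The non-deprived values lay inside the range of the deprived ones, and the spread was wider in deprived (1328 ± 246) than in non-deprived cortex (1284 ± 69.2, SD, n = 4 each), a difference in spread that was not tested. Deprived minus non-deprived came to 0.03 ± 0.15 on the log2 scale (SE), with a 95% interval of -0.29 to 0.36 and a limma adjusted p of 0.995. Igf1 was higher in 2 of 4 pairs, and its difference was -0.08 without deprived replicate 3. The interval leaves room for a change of either sign of the size seen for Igfbp6.

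**Figure D1:**
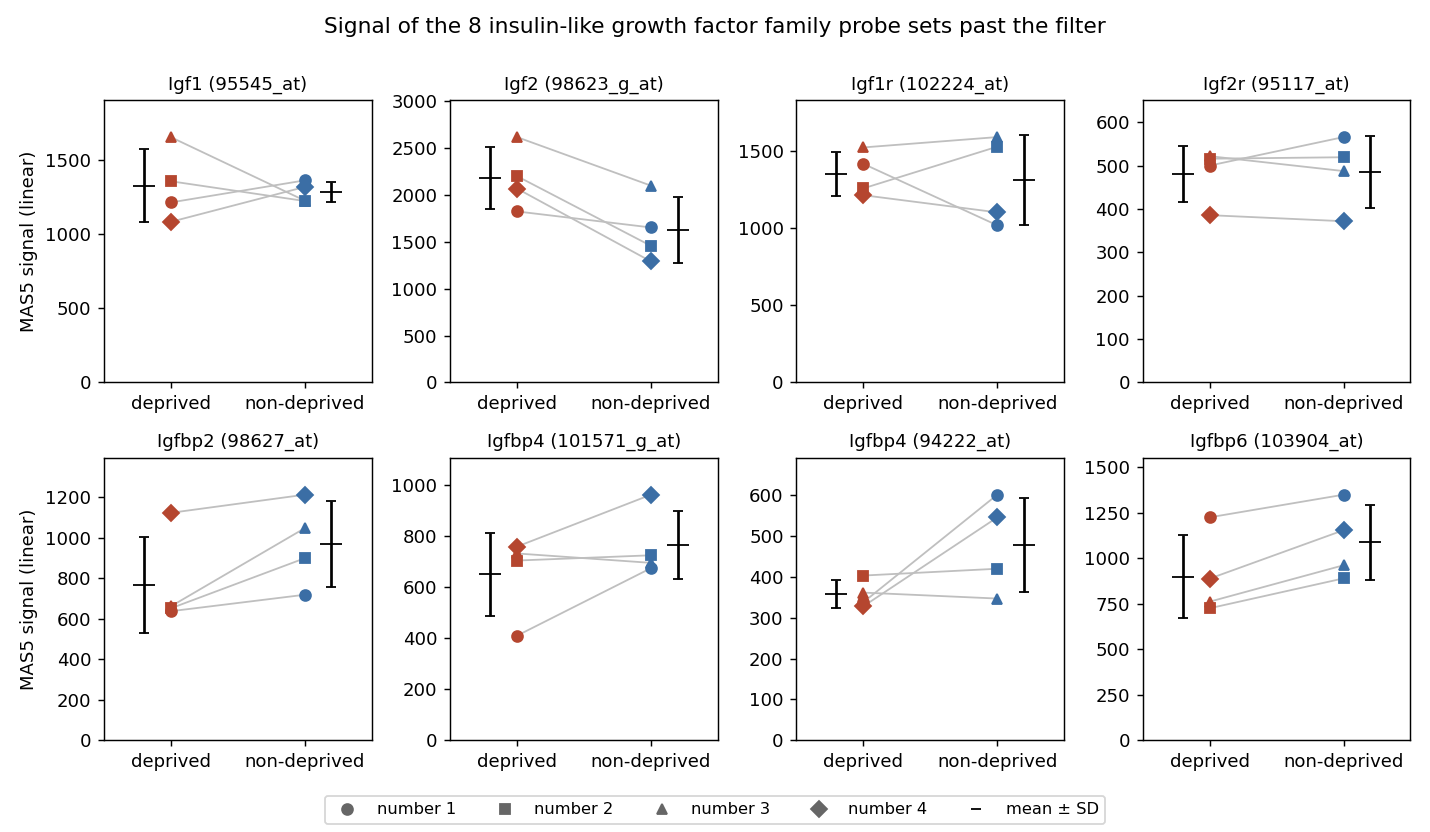
MAS5 signal (linear axis from 0) of the 8 family probe sets past the filter, with deprived samples on the left and non-deprived samples on the right of each panel; marker shapes and grey lines join samples of the same number, and bars give mean ± SD (n = 4). All 4 lines of Igf2 slope down towards non-deprived cortex and all 4 of Igfbp2 and of Igfbp6 slope up. The lines of Igf1, Igf1r and Igf2r slope both ways.

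Both receptors had differences near 0, with intervals that reach past 0.3 on the log2 scale in either direction. Igf1r, the signalling receptor, had signals of 1416.5, 1257.1, 1522.4 and 1213.2 in deprived cortex, against 1018.0, 1527.3, 1589.6 and 1101.8 in non-deprived cortex. The deprived values lay within the range of the others. On the log2 scale the difference was 0.07 ± 0.17 (SE; 95% interval -0.30 to 0.44; limma adjusted p = 0.995), higher in 2 of 4 pairs, and it was -0.04 without non-deprived replicate 1.

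Igf2r, the clearance receptor, had signals of 500.1, 516.0, 521.9 and 385.8 in deprived cortex, against 565.9, 519.4, 487.5 and 371.8 in non-deprived cortex. Both samples numbered 4 were the lowest of their groups. The log2 difference was -0.01 ± 0.17 (SE; 95% interval -0.39 to 0.37; limma adjusted p = 0.995), lower in 2 of 4 pairs, and it was 0.09 without deprived replicate 4. Of the substrate side, Irs1, the adaptor that links the receptor to phosphatidylinositol 3-kinase, was below the filter. It had signals of 4.2 to 33.9 in deprived and 7.9 to 27.6 in non-deprived cortex, too dim to give a direction.

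The binding proteins past the filter all lay below 0. Igfbp2, a binding protein with a preference for Igf2, had signals of 636.1, 650.2, 659.8 and 1121.9 in deprived cortex, against 717.5, 897.7, 1046.0 and 1211.5 in non-deprived cortex. Deprived samples 1, 2 and 3 lay below every non-deprived sample, and deprived sample 4 stood far above them, beside the brightest non-deprived sample, which is also numbered 4. Means were 767 ± 237 in deprived and 968 ± 211 in non-deprived cortex (SD, n = 4 each). The log2 difference was -0.35 ± 0.21 (SE), a fold of 0.786, with a 95% interval of -0.82 to 0.12, a limma adjusted p of 0.995 and an exact permutation p of 0.2. It was lower in 4 of 4 pairs, at -0.17, -0.46, -0.65 and -0.11 for numbers 1 to 4. Without deprived replicate 4 the difference was -0.54. With the replicate block the interval was -0.63 to -0.06, the unadjusted limma p was 0.0219 and the adjusted p was 0.703.

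Igfbp6, which also prefers Igf2, had signals of 1225.5, 725.1, 761.4 and 888.1 in deprived cortex, against 1350.2, 889.7, 961.9 and 1154.8 in non-deprived cortex. The order of the 4 numbers was the same in both groups, with number 1 the highest and number 2 the lowest. Means were 900 ± 228 in deprived and 1089 ± 207 in non-deprived cortex (SD, n = 4 each), so the groups overlapped widely. The pair differences lay in a narrow band, at -0.14, -0.29, -0.33 and -0.37. The log2 difference was -0.28 ± 0.19 (SE; 95% interval -0.70 to 0.14; limma adjusted p = 0.995; exact permutation p = 0.229). With the replicate block the interval was -0.52 to -0.04, the unadjusted limma p was 0.0247 and the adjusted p was 0.703. Without deprived replicate 1 the unblocked difference was -0.44, and without non-deprived replicate 1 it was -0.17. The values of Igfbp2 and Igfbp6 did not follow each other over the 8 arrays (Pearson r = 0.11, Spearman rho = 0.10, over 8 arrays that share 4 numbers).

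Igfbp4, a binding protein that inhibits Igf1 action, had 2 probe sets past the filter. Probe set 94222_at had signals of 337.8, 403.5, 361.7 and 327.9 in deprived cortex, against 601.8, 420.2, 347.1 and 546.1 in non-deprived cortex. The deprived samples were tightly grouped, and non-deprived samples 1, 2 and 4 stood above all of them, sample 2 only slightly. Its log2 difference was -0.38 ± 0.19 (SE; 95% interval -0.79 to 0.03; limma adjusted p = 0.995), lower in 3 of 4 pairs. Leaving out non-deprived replicate 1 gave -0.26, and leaving out non-deprived replicate 3 gave -0.52.

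Probe set 101571_g_at had 409.8, 704.9, 732.7 and 759.6 in deprived cortex, against 675.0, 725.5, 695.8 and 963.4 in non-deprived cortex. Here deprived sample 1 alone was low. Its log2 difference was -0.25 ± 0.21 (SE; limma adjusted p = 0.995), again lower in 3 of 4 pairs, and -0.05 without deprived replicate 1. Both probe sets put their largest pair difference at number 1, at -0.81 for 94222_at and -0.70 for 101571_g_at.

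**Figure D2:**
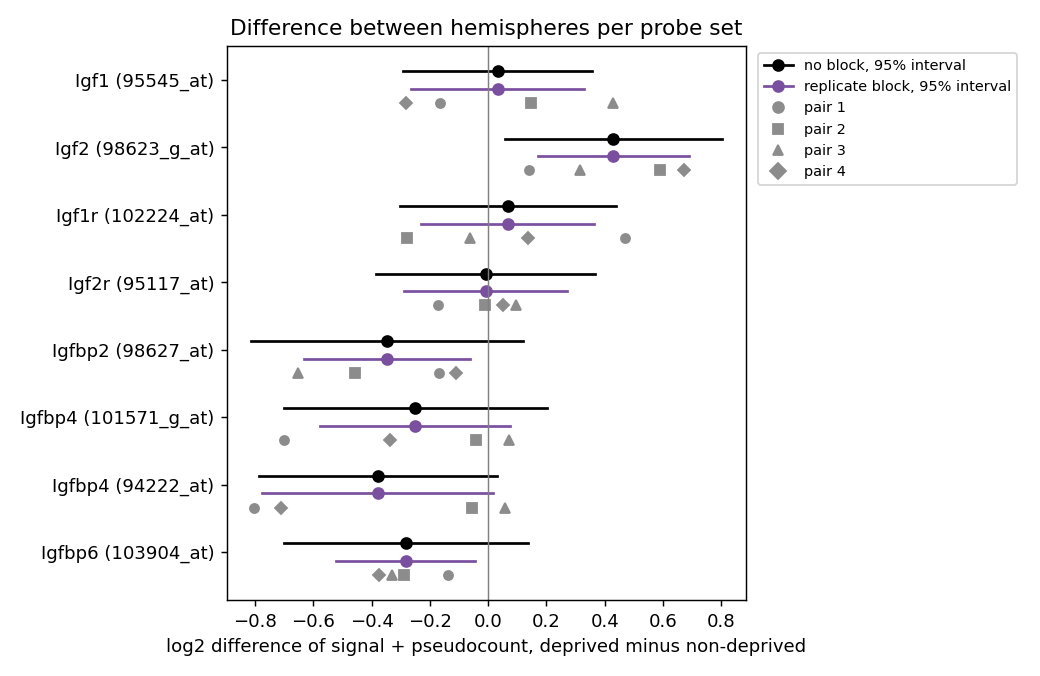
Log2 difference of signal plus pseudocount, deprived minus non-deprived, for the 8 family probe sets past the filter, with 95% intervals from limma without (black) and with (purple) the replicate block and the 4 same-numbered pair differences in grey. With the block the intervals of Igf2 (0.17 to 0.69), Igfbp2 (-0.63 to -0.06) and Igfbp6 (-0.52 to -0.04) do not cross 0, although 0 of the 8 passed after adjustment over all probe sets.

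Probe sets of the same gene did not all give the same values. Igf1 and Igf2 each had 1 bright and 1 dim probe set annotated to the same sequence entry. The dim probe set of Igf2, 98622_at, had signals of 9.6 to 22.2 in deprived and 9.5 to 27.4 in non-deprived cortex and a log2 difference of 0.01, and its values had a Pearson r of -0.03 (Spearman rho 0.10) with those of the bright one over the 8 arrays. The result for Igf2 therefore rests on 1 probe set. The dim probe set of Igf1, 95546_g_at, had 14.4 to 50.1 in deprived and 14.7 to 26.2 in non-deprived cortex, with a log2 difference of 0.24.

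Of Igfbp4, the dim probe set 101570_at lay at 0.50 and was higher in 4 of 4 pairs, against the sign of both brighter ones, at signals of 25.7 to 96.4 in deprived and 20.3 to 42.6 in non-deprived cortex. It shares its sequence entry with 101571_g_at. Igfbp3, the main carrier of Igf1 in blood, had only dim probe sets. Probe set 95082_at had 32.6 to 131.6 in deprived and 15 to 116.2 in non-deprived cortex (log2 difference 0.41, higher in 2 of 4 pairs). Probe set 95083_at had 27.5 to 196.7 in deprived and 41.3 to 116.4 in non-deprived cortex (log2 difference 0.14, higher in 2 of 4 pairs), and that difference was -0.32 without deprived replicate 1. Fitted with no filter, 0 of the 6 dim probe sets passed in limma, with the smallest adjusted p at 0.974 and the smallest unadjusted p at 0.168.

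**Figure D3:**
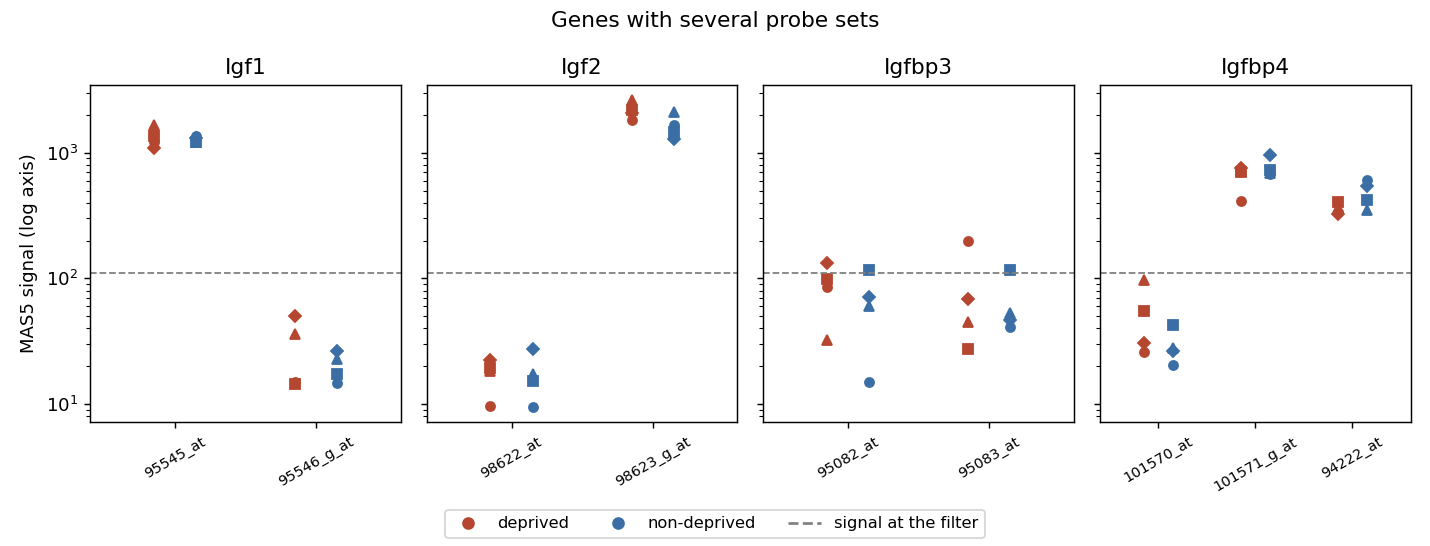
MAS5 signal (log axis) of each sample for the 4 family genes with several probe sets, deprived samples to the left of non-deprived ones, with marker shapes for the sample numbers 1 (circle), 2 (square), 3 (triangle) and 4 (diamond); the dashed line is the signal of about 110 at the filter. The dim probe sets of Igf1, Igf2 and Igfbp4 lie wholly below the line, and both probe sets of Igfbp3 straddle it.

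Tissue that makes these transcripts was followed through marker lists. In bulk tissue, fewer cells of a type and less RNA per cell cannot be told apart. Of markers of cortical excitatory neurons, 7 of 7 on the array passed the filter, with a median log2 difference of -0.04. For meninges and fibroblasts, a known source of Igf2, 10 of 15 markers passed the filter. Mgp (-0.12) and Islr (-0.04) lay below 0. The other 8 lay above 0, where 54.9% of all probe sets did, and the median of the 10 was 0.12. The summed signal of the 10 was 9129 to 16890 in deprived and 9344 to 16113 in non-deprived cortex. The sum is mostly Ptgds, with a mean of 7700 in deprived and 7379 in non-deprived cortex. The mean log2 value of the list was higher on the deprived side in 4 of 4 pairs, as Igf2 was. In pair 3 this sign rested on Fmod, at 230 in the deprived and 44 in the non-deprived sample. The other markers went both ways in that pair. With the replicate block 2 of the 10, Fmod (0.00172) and Dcn (0.0359), had an unadjusted limma p under 0.05, where 7.03% of all probe sets did. Fmod, a matrix proteoglycan gene, had 251 ± 78.0 in deprived and 105 ± 103 in non-deprived cortex (SD, n = 4, log2 difference 1.41, limma adjusted p = 0.995). Its non-deprived signals were 64.4, 52.3, 44 and 258.6. Only sample 4 of that group lay above the filter's signal of about 110, so Fmod passed mainly through its deprived samples. Dcn, another such gene, had 464 ± 78.5 in deprived and 349 ± 75.4 in non-deprived cortex (0.40, limma adjusted p = 0.995). None of the 15 markers was at 0, and Col3a1, Lum, Aldh1a2, Slc22a6 and Ogn were below the filter. The part of meninges in the Igf2 values was not tested.

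For choroid plexus, another source of Igf2, 0 of the 5 markers on the array passed the filter. Its defining marker Ttr, which encodes transthyretin, had a signal of 43.3 ± 22.2 in deprived and 31.9 ± 25.3 in non-deprived cortex (SD, n = 4). For endothelium, 8 of 9 markers on the array passed, 5 above and 3 below 0, with a median of 0.07 and summed signals of 2116 to 3149 in deprived and 2434 to 3295 in non-deprived cortex. Among them Slc2a1 (-0.38) and Cldn5 (-0.30) were each lower in 4 of 4 pairs, with an unadjusted blocked limma p under 0.05, as had 7.03% of all probe sets. Mural cell markers had a median of -0.09, with 5 of 9 past the filter and sums of 1205 to 1654 in deprived and 1280 to 1464 in non-deprived cortex. For astrocytes, which make Igfbp2, 7 of 7 markers passed with a median of -0.06. Sums were 15939 to 24170 in deprived and 15655 to 24379 in non-deprived cortex. At an unadjusted blocked limma p under 0.05, 2 of the 7 were higher, Gja1 (0.23) and Glul (0.56), and 1 was lower, S100b (-0.29). Interneuron markers, among them those of neurons known to make Igf1, had a median of -0.05 over 10 of 10, with sums of 23222 to 29959 in deprived and 25700 to 31996 in non-deprived cortex. Of these markers 4 lay above 0 and 6 below, and the mean log2 value of that list was lower in 4 of 4 pairs. In pair 2 this sign rested on Sst and Npy, and the other markers went both ways there. Vip (-0.16) was higher in 1 of 4 pairs, with an unadjusted blocked limma p of 0.369. With the block Sst (-0.49) and Npy (-0.60), lower in 4 of 4 pairs each, had an unadjusted limma p under 0.05, where 7.03% of all probe sets did. Lhx6 (0.28) went the other way and was higher in 4 of 4 pairs. Thalamus markers had a median of 0.23, with 5 of 6 above 0 and a mean log2 value higher in 4 of 4 pairs. Sums were 2500 to 3096 in deprived and 2312 to 2616 in non-deprived cortex. Of the 6, 1 had an unadjusted blocked limma p under 0.05, Tcf7l2 (0.32). Medians were 0.08 for microglia, -0.06 for oligodendrocytes, -0.13 for 2 hippocampus markers and -0.04 for 2 blood markers. The hippocampus marker Wfs1 (-0.28), lower in 4 of 4 pairs, had an unadjusted blocked limma p under 0.05. The part of these lists in the family's values was not tested either.

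Array measures were also compared between the groups. The 10th percentile of signal was 17.2 ± 2.68 in deprived and 13.5 ± 0.718 in non-deprived arrays (SD, n = 4), and an exact permutation test gave p = 0.029, as small as 70 assignments allow. All 6 dim family probe sets had a log2 difference above 0, as had 69.8% of all 4969 probe sets below the filter, and 4 of the 6 with quantile scaling. The actin control probe sets, read as signal at the 3' end over that at the 5' end to gauge RNA integrity, gave ratios of 1.64 ± 0.239 in deprived and 1.39 ± 0.179 in non-deprived arrays (SD, n = 4; exact permutation p = 0.171). The same ratio for Gapdh went the other way, with 0.842 ± 0.0345 in deprived and 0.898 ± 0.0543 in non-deprived arrays (SD, n = 4; exact permutation p = 0.143). For comparison, all 5 of the activity-regulated genes Fos, Egr1, Junb, Nr4a1 and Bdnf lay below 0, with a median log2 difference of -0.83. Of all probe sets 54.9% lay above 0, and the limma adjusted p of each of the 5 was 0.995. These genes were listed with earlier results of these data known, so their shared sign is no independent check. The part of the array measures in the family's values was not tested.

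Other genes of the insulin and insulin-like growth factor pathway showed small differences. Of 84 listed genes (other receptors and substrates, adaptors, kinases, phosphatases, growth-regulating targets, proteases and RNA-binding proteins), 60 were on the array and 40 passed the filter. None passed in limma in either direction, 0 higher and 0 lower after adjustment, as for all probe sets (0%), and also at an unadjusted p under 0.05 there were 0 higher and 0 lower, where 1.45% and 1.22% of all probe sets lay there. Above 0 were 28 of the 40, against 54.9% of all probe sets, and the median was 0.09, against 0.02. With the replicate block 1 of 40 had an unadjusted limma p under 0.05, Socs2, where 7.03% of all probe sets did.

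Socs2, a suppressor of cytokine and growth hormone signalling, had signals of 772.8, 550, 493 and 564 in deprived cortex, against 886.6, 744.1, 891.7 and 566.6 in non-deprived cortex. It was lower in 4 of 4 pairs, with nearly equal values in number 4 and a log2 difference of -0.37 ± 0.19 (SE; limma adjusted p = 0.995). The others below 0 with the smallest p were the adaptor Grb2 (-0.18), the S6 kinase gene Rps6kb2 (-0.37) and Ptpn1 (-0.19), a phosphatase that acts on the insulin receptor. Rps6kb2 rests on a single sample, with 131.7 in deprived sample 2 and 380.1 to 434.7 in the other deprived samples, against 344.5 to 438.7 in non-deprived cortex, and its difference was 0.01 without that sample.

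Those above 0 with the smallest p were the 14-3-3 protein gene Ywhab (0.23), the Ras exchange factor Sos1 (0.34), Nras (0.22) and Tsc2 (0.17), a brake on mTOR. Ywhab had 1244 ± 112 in deprived and 1056 ± 91.5 in non-deprived cortex (SD, n = 4; limma adjusted p = 0.995) and was higher in 4 of 4 pairs, as was Tsc2, with 1718 ± 152 in deprived and 1521 ± 30.5 in non-deprived cortex (SD, n = 4; limma adjusted p = 0.995). Tsc1 (0.21) and Shc1 (0.29) were also higher in 4 of 4 pairs. Of other kinases of the pathway, Akt1 lay at -0.10 and Akt2 at -0.08, each lower in 4 of 4 pairs. Their unadjusted blocked limma p was 0.357 and 0.445. Over all probe sets 15.9% kept one sign in 4 of 4 pairs, so such counts are common. Pik3ca lay at -0.12, Pik3cd at 0.15, Pdpk1 at 0.17 and Mtor at 0.01.

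**Figure D4:**
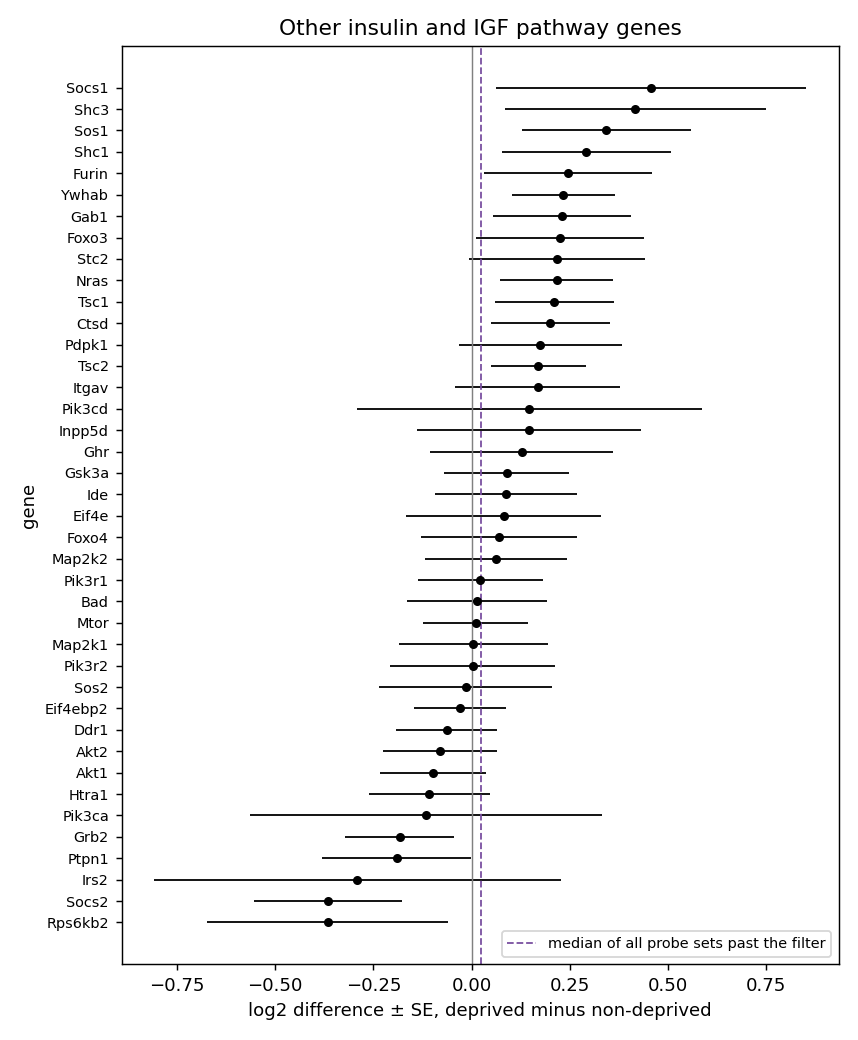
Log2 difference ± SE, deprived minus non-deprived, of the 40 other pathway genes past the filter, in order of size, with the median of all 7453 probe sets (0.02) as a dashed line. The points run from -0.37 for Rps6kb2 to 0.46 for Socs1, with 28 of 40 above 0 and 0 passing after adjustment.

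Genes whose log2 values followed those of a family member most closely over the 8 arrays were listed for Igf1, Igf2 and Igfbp2, out of 5674 genes each. The arrays share 4 numbers and a common scaling, and with 8 arrays and this many genes high values of r occur without any relation. For Igf2 they were Klc4 (Pearson r = 0.96, Spearman rho = 0.95), Ndufa1 (0.96 and 0.88), Hpcal4 (0.95 and 0.90), Slc22a5 (0.95 and 0.90) and Plcb1 (0.94 and 0.95). For Igf1 the first was Clptm1l (Pearson r = 0.96, Spearman rho = 0.95), followed by Sfxn1, Sapcd1, Rnps1 and the glial connexin gene Gjb6 at r of 0.93 to 0.96. For Igfbp2 the first was Adgrb1 (Pearson r = 0.98, Spearman rho = 0.98), followed by Tmem234, Brk1, Cnih2 and the perineuronal matrix gene Bcan at r of 0.95 to 0.98.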

How the data were processed

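Total RNA of about 10 µg per sample was made into biotin-labelled cRNA, per the labels' protocols. Per the submitters' processing notes the authors used MAS5, and the deposited numbers are its linear intensity for each probe set. No source used here gives its version or settings. The 2% trimmed mean of every array was about 500, and the number of arrays limits the precision. The table held 12488 probe sets.

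Arrays were rescaled to one trimmed mean and 66 control probe sets left out. The pseudocount of 15.3 in log2(signal + 15.3) is the 10th percentile of signal. Of the probe sets, 10833 had 1 gene symbol, 396 several and 1193 none, and 10817 symbols were updated through Entrez identifiers to GRCm38.p6. The comparison used lmFit and eBayes of limma 3.58.1 (R 4.3.3; intensity trend, two-sided, Benjamini-Hochberg threshold 0.05), and single values with exact permutation and sign-flip tests. The code was tested on simulated data. Lists used the brightest probe set per gene. Plots used Python 3.11.15 and matplotlib 3.10.9.

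The labels do not tie numbers to animals, so pairing by number was checked on the values. Deviations from group means correlated at 0.16 to 0.42 between same-numbered samples and at -0.27 to 0.12 between others. Every same-numbered pair lay over the limit of 0.1, and blocked values are given. The highest value between others also lay over it, so the limit alone does not set same-numbered pairs apart. Alternatives were quantile scaling, pseudocounts of 1 and 50, other filters, no trend, fixed and random blocks, and samples or pairs left out.

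The family members and lists were chosen with earlier results of these data known. By the rule for named genes, all family probe sets were given. So were the 4 other pathway genes of smallest p in each direction and the 5 genes most like Igf1, Igf2 and Igfbp2. Socs1, Tsc1, Shc1, Akt1, Akt2, Pik3ca, Pik3cd, Pdpk1 and Mtor were named after their values were seen. The same holds for the markers Fmod, Dcn, Ptgds, Mgp, Islr, Slc2a1, Cldn5, Gja1, Glul, S100b, Sst, Npy, Lhx6, Vip, Tcf7l2, Wfs1 and Ttr. Promoter sequences are from RefSeq, GRCm38.p6.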

Additional observations from a re-analysis of the deposited data

Results flagged for a closer look

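Among 44 sets of 4 samples (family and named pathway probe sets, on log2 values), 4 held a sample set apart from the rest, where chance gives about 1 in 20, or 2.2. The gap divided by the range of the 4 values was 0.936 for Igfbp2 (98627_at), set by deprived replicate 4 at a signal of 1121.9, the highest of its group. It was 0.858 for Igf2r (95117_at), set by the same sample at 385.8, the lowest. It was 0.878 for Igfbp4 (101571_g_at), set by deprived replicate 1 at 409.8, and 0.884 for Rps6kb2 (103825_at), set by deprived replicate 2 at 131.7, both the lowest of their groups.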

How the results depend on the processing

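The number of family probe sets called was 0 under each of the 20 alternatives run, as was that of other pathway genes. Over all probe sets it was 0 except with the replicate block and pair 4 left out, where it was 1. At an unadjusted limma p under 0.05 there were 199 probe sets, 524 with the replicate block, 535 with the random block, 491 with no filter, 97 with the filter at the 60th percentile, and 133 to 429 with 1 sample left out. For the family the number was 1, and 2 with quantile scaling. It was 3 with the fixed block (Igf2, Igfbp2 and Igfbp6) and 3 with the random block (Igf2, Igfbp2 and Igfbp4 94222_at). With the fixed block and a pair left out it was 2 to 4. With 1 sample left out it was 0 to 2. It was 0 without deprived replicate 2 or 3, or non-deprived replicate 2 or 4, where the unadjusted limma p of Igf2 was 0.0502 to 0.0917. The Igf2 difference was 0.33 to 0.56 with 1 sample left out and 0.46 with quantile scaling. The family median was -0.15 to -0.04 with 1 sample left out.

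Among family and named pathway probe sets past the filter, the differences of Igf1, Igf1r, Igf2r, Rps6kb2 and Ptpn1 changed sign in some setting. With 1 sample left out, Igf1 ran from -0.078 to 0.12, Igf1r from -0.043 to 0.17, Igf2r from -0.13 to 0.090 and Rps6kb2 from -0.53 to 0.0091. With the replicate block and a pair left out, Igf1 was -0.0059 without pair 2 and -0.099 without pair 3, Igf1r was -0.067 and Igf2r 0.046 without pair 1, and Ptpn1 was 0.030 without pair 2. Igfbp2 (-0.54 to -0.23), Igfbp6 (-0.44 to -0.17) and both brighter Igfbp4 probe sets (-0.52 to -0.05) stayed below 0 in each setting that was run. The replicate block changed no adjusted call of the family. With quantile scaling 2 of the 6 dim family probe sets lay below 0, Igf2 98622_at at -0.16 and Irs1 at -0.073. With 1 sample left out, the lowest difference of Igfbp3 was -0.0027 for 95082_at and -0.32 for 95083_at. It was -0.11 for Igf2 98622_at and -0.041 for Irs1, so these dim probe sets changed sign as well.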
